A study of Mus musculus with 6 samples.

Results

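The regions described here are stretches of mouse chromatin at the ends of protein-coding genes where all 6 ATAC-seq libraries of 3 skin cell populations had a peak. ATAC-seq uses a transposase that inserts adapters into DNA not covered by nucleosomes, so a peak marks accessible chromatin. Joining the peaks of the 6 deposited lists wherever they shared 1 bp or more gave 75738 consensus regions (build mm10). Of these, 13499 lay within 1 kb of either end of a protein-coding gene in RefSeq, and 11135 of the 13499 held a peak in every library. These 11135 members are 14.7% of all consensus regions. They were chosen by the presence of peaks, so presence is given below as a description and carries no test.

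All cells came from back skin of C57BL/6 mice of the genotype TNC-CREER; tdTomato, at postnatal day 60, after tamoxifen on days 51 and 52 (100 µg for each g of weight). In these mice Cre is tied to Tnc, which encodes tenascin-C of the extracellular matrix, and tamoxifen switches on the red reporter tdTomato in cells that use it, so all 3 populations carried the transgenes and had the drug. Touch dome cells, keratinocytes of the small sensory patches that house Merkel cells, were sorted as positive for EPCAM, SCA1, α6-integrin and tdTomato. Cells of the interfollicular epidermis (IFE) shared these surface markers and lacked tdTomato. Those of the hair follicle (HF) carried EPCAM and α6-integrin without SCA1 or tdTomato. There were 2 libraries per population, each from 50000 cells. Whether the 2 are from different mice is not said in the labels, and the p-values below may measure technical spread alone. The lists held 50153 and 59250 peaks for touch dome, 52219 and 51124 for IFE, and 54844 and 57131 for HF, with positions alone and no read depth or peak score.

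The promoter, the DNA around a gene's start, is where RNA polymerase II and its general factors assemble. Many mammalian promoters lie in CpG islands, stretches rich in the dinucleotide CG that are usually unmethylated and poor in nucleosomes. Genes needed in every cell, called housekeeping genes, mostly have promoters of this kind, whereas tissue genes more often depend on distant enhancers and on promoters poor in CG. Sequence motifs of ETS factors, SP/KLF proteins, NRF1, CREB proteins and YY1 are known from housekeeping promoters, and the TATA box from many tightly controlled tissue genes.

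To show what such DNA looks like, 250 bases before the start listed in RefSeq are given for 8 genes (GRCm38.p6, the assembly behind mm10). Each is read 5′ to 3′ on the gene's strand and lies inside a member. Capitals mark matches on either strand to 9 motifs: CCGGAAG for ETS factors, GGGCGG for the GC box of SP and KLF proteins, CCAAT for the box of that name, GCGCNTGCG for NRF1, TGACGTCA for the CRE of CREB proteins, AAGATGGCG for YY1, CACGTG for the E-box, TGANTCA for AP-1 and TATAAA for the TATA box. Matches of different motifs, or of 1 motif in a row, can overlap or touch. The first 5 genes are the ribosomal, proteasome and respiratory chain genes with the widest member for a given motif: Rpl41 and Rps27 encode ribosomal proteins, Psmc4 an ATPase of the proteasome, and Ndufa13 and Ndufa11 subunits of respiratory complex I.
Rpl41 (chr10:128549169-128549418, minus strand): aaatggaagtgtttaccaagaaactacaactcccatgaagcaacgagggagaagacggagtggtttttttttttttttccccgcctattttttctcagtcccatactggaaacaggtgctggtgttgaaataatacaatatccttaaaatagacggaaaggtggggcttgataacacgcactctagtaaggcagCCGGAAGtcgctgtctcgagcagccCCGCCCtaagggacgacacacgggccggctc
Ndufa13 (chr8:69902021-69902270, minus strand): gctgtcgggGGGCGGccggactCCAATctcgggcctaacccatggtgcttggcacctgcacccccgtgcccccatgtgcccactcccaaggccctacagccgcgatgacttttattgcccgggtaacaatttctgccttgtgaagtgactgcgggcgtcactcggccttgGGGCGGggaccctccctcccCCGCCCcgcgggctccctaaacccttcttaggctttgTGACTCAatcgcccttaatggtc
Psmc4 (chr7:28050093-28050342, minus strand): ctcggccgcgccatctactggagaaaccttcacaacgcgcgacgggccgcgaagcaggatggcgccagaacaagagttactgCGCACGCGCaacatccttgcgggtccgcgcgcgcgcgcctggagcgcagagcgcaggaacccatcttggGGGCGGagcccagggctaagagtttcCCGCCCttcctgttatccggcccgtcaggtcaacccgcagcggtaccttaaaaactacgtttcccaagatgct
Ndufa11 (chr17:56717512-56717761, plus strand): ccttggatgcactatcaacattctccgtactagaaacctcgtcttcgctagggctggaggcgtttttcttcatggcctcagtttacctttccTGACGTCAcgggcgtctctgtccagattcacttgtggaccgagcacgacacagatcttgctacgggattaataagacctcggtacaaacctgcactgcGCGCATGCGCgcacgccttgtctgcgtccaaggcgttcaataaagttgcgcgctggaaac
Rps27 (chr3:90213649-90213898, minus strand): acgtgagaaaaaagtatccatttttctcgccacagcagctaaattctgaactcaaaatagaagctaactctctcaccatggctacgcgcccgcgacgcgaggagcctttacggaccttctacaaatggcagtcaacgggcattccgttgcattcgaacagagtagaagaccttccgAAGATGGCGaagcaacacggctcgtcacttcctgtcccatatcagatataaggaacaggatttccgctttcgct

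The last 3 were chosen after their values were seen. Each had the largest called width difference in a comparison and direction described below, among members that hold a gene start whose promoter sequence could be used. For Arhgdib alone, larger named differences lay at members without such a start, those of Phlpp2, Rspo3 and Itprid2. They are Kirrel, a cell adhesion gene of the nephrin family, Adamts14, a procollagen-processing protease, and Arhgdib, a regulator of small GTPases. The start listed for Kirrel lies inside its gene span, whose outer end is at 87174777. Most of the Kirrel bases shown therefore lie within the span.
Kirrel (chr3:87174538-87174787, minus strand): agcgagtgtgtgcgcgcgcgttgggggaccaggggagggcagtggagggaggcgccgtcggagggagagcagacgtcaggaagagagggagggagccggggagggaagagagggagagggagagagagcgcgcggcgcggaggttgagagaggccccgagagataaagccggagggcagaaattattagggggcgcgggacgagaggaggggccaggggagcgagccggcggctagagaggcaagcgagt
Adamts14 (chr10:61273420-61273669, minus strand): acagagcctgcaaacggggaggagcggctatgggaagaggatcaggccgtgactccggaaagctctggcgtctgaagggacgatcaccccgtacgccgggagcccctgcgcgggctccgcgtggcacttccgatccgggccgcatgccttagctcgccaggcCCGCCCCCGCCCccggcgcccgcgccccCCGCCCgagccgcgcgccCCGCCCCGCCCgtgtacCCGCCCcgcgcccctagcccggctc
Arhgdib (chr6:136941900-136942149, minus strand): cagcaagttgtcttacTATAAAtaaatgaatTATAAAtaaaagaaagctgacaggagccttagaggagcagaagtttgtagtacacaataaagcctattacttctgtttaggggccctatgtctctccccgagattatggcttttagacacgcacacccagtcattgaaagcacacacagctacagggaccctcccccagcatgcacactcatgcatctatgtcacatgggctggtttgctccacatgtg

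Rpl41 held 1 ETS and 1 GC box match, Ndufa11 a CRE match and Rps27 a YY1 match, and Kirrel 0 matches to the 9 motifs in these 250 bases. The ratio of observed to expected CpG is near 1 where CG has not been lost to methylation. It was 0.834 before Rpl41, 0.642 before Ndufa13, 1.15 before Psmc4, 1.14 before Ndufa11, 1.23 before Rps27, 1.12 before Kirrel and 0.982 before Adamts14. Arhgdib stood apart, with a ratio of 0.164 and 2 matches to the TATA box.

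Regions at gene ends mostly had peaks in every library. Of the 13499 regions within 1 kb of an end, 82.5% had a peak in all 6, against 37.1% of the 62239 regions farther away. Only 584 gene-end regions had a peak in 1 library, 450 in 2, 369 in 3, 525 in 4 and 436 in 5. The share depended on whether the region held the end itself. Of 10615 regions that spanned a gene end, 91.0% had a peak in all 6, and 9656 of the members (86.7%) were of this kind. From 1 to 100 bp away the share was 54.5%. Around the 1 kb limit it was 51.2% (124 of 242) at 901 to 1000 bp and 49.3% (111 of 225) at 1001 to 1100 bp, so the share was alike on both sides of the limit.

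Just outside the rule stood the 436 gene-end regions with a peak in 5 libraries. The library without a peak was touch dome 1 in 119 of them, touch dome 2 in 16, IFE 1 in 38, IFE 2 in 80, HF 1 in 84 and HF 2 in 99. Touch dome 1 had the fewest peaks of the 6 lists and touch dome 2 the most. Median peak width in these 436 regions ran from 591.5 to 665.5 bp over the libraries, below the 1193 to 1284 bp of members.

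Members sat at gene starts far more than at gene 3′ ends. The strand was known for 17492 of 21887 genes. Among members, 7426 (66.7%) lay near starts alone, 628 (5.64%) near 3′ ends alone, 647 near both, and 2058 (18.5%) near genes of unknown strand alone. Of the 17492 starts 9253 (52.9%) had a member within 1 kb, and of the same genes' 3′ ends 1529 (8.74%). Where a start had any region, 90.9% had a member, against 63.7% of 3′ ends. Of the members 566 (5.08%) held or lay within 1 kb of both starts of a divergent pair. Such a pair is 2 genes whose starts lie back to back on opposite strands. Of the 628 at 3′ ends alone, 21 (3.34%) also held a start listed in the promoter table.

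In all, 11944 of 21887 protein-coding genes (54.6%) had a member, and 1205 had more than 1. Genes with a member spanned a median of 21885 bp and those without 11243 bp. Chromosome 11 had the highest share of genes with a member (64.1%) and chromosome 8 followed with 63.8%. Lower shares stood on chromosome 7 (45.6%), which holds large olfactory and vomeronasal receptor clusters, on X (34.3%) and on Y (4 of 256 genes, 1.56%).

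Genes of the core machinery of the cell nearly all had a member. In 11 lists joined, covering ribosomes, mitochondrial ribosomes, proteasome, respiratory chain, tRNA synthetases, RNA polymerase II, Mediator, initiation factors, spliceosome, chaperonin and histones, 542 of 576 genes (94.1%) had one, against 54.6% of all genes. Mitochondrial ribosomal genes reached 74 of 75, with Mrpl4 the exception, and spliceosome genes 53 of 54, with Snrpn, an imprinted gene used mainly in brain and heart, the exception. All 9 genes of the chaperonin CCT, which folds actin and tubulin, had a member. Ribosomal protein genes had 80 of 84, and Rpl10l, Rpl39l, Rpl19 and Rps2 lacked one. Rpl10l and Rpl39l are copies used in the testis. Proteasome genes had 36 of 39; Psma8 and Psmb11, subunits of the testis and thymus proteasomes, and Psma6 lacked one. Replication-dependent histones had 61 of 64, and the 3 others were H2ac1, H2bc1 and H2bc23. Respiratory chain genes had 86 of 96, and the 10 others included the tissue forms Cox4i2, Cox6a2, Cox7b2, Cox8b and Cox8c. With the wider 50% of peaks the shares of the 11 lists ran from 66.7% (mitochondrial ribosome) to 100% (chaperonin). Since these lists were chosen with earlier results known, the shares describe the lists.

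Several large gene families had few members. Olfactory receptors had a member at 3 of 1107 genes (0.271%; exact 95% binomial interval 0.0559 to 0.790%) and vomeronasal receptors at 2 of 353. The olfactory members lay at Olfr433, Olfr70 and Olfr94, and the vomeronasal ones at Vmn1r4 and Vmn2r29. That of Vmn1r4 also held the start of Nt5c3, a nucleotidase gene, and that of Olfr94 also lay within 1 kb of an end of Ubd. Keratin-associated proteins, which fill the hair shaft, had 4 of 53, beta-defensins 4 of 42, and the late cornified envelope and small proline-rich genes of the outermost epidermis 4 of 41. Zinc finger genes named Zfp had 297 of 394 (75.4%) and solute carriers 195 of 346 (56.4%), the latter close to all genes.

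**Figure D1:**
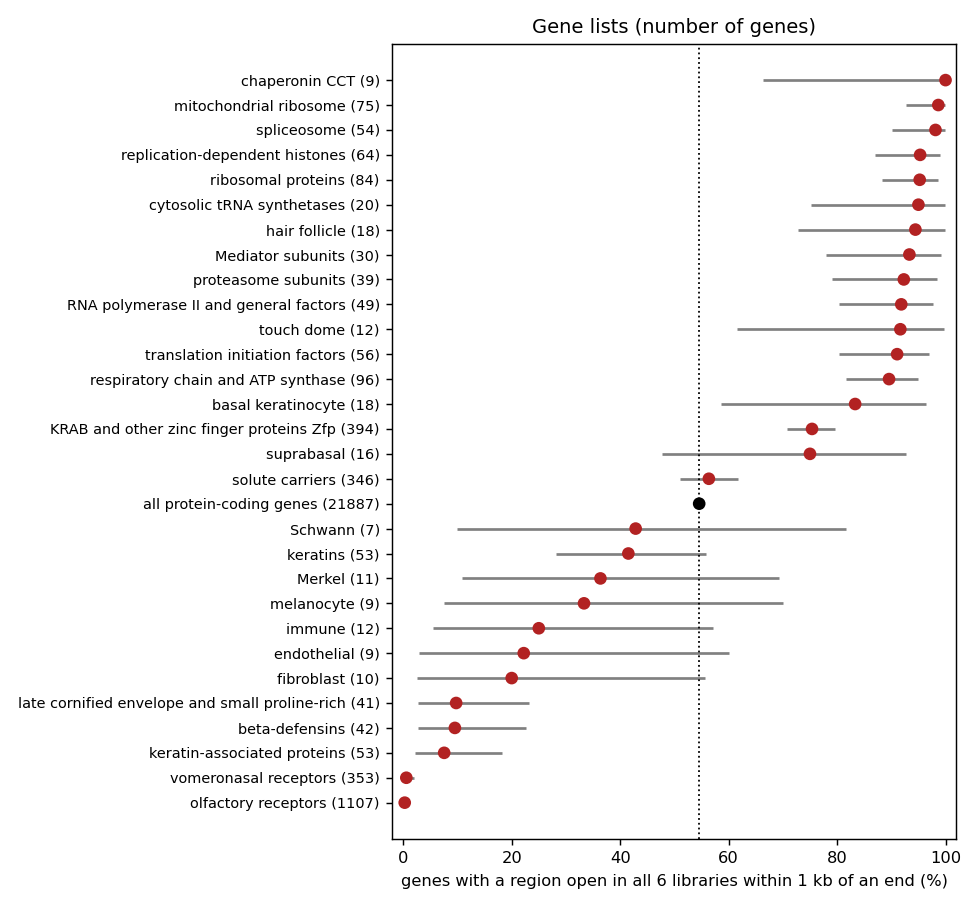
Share of genes with a member (horizontal axis, %) for 29 gene lists and for all protein-coding genes (black point, dotted line at 54.6%); grey lines are exact 95% binomial intervals and numbers in brackets count genes. Housekeeping lists lie near the right edge, receptor and cornified envelope families near the left.

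Keratinocyte and follicle genes mostly had a member, at 52 of 61 genes (85.2%) over 4 lists. Basal keratinocyte genes had a member at 15 of 18, among them Krt5 and Krt14, the keratin pair of basal cells, and Col17a1 and Itgb4 of the hemidesmosome. Dst, Lamb3 and Trp63 had none, Trp63 being the p63 gene that specifies stratified epithelium. Hair follicle genes had 17 of 18, including Sox9, Lhx2, Lgr5 and Cd34, with Runx1 the exception. Touch dome genes had 11 of 12, including the Hedgehog pathway genes Ptch1, Gli1, Gli2 and Boc, with Hhip, an inhibitor of that pathway, the exception, and suprabasal genes had 12 of 16. All 4 genes of the sort, Tnc, Ly6a (SCA1), Epcam and Itga6, had a member, also in the populations sorted as lacking SCA1 or tdTomato. This changed with stricter peaks. When peaks had to cover 50% of the region, 25% of the sort genes had a member, as did 66.7% of the basal, hair follicle and touch dome lists and 62.5% of the suprabasal list. With the wider 50% of peaks the shares were 50% of the sort genes, 77.8% of basal, 66.7% of hair follicle and of touch dome and 50% of suprabasal genes, against 43.0% of all genes.
Markers of other cell types had 17 of 57 (29.8%): Merkel cells 4 of 11, melanocytes 3 of 9, immune cells 3 of 12, fibroblasts 2 of 10, endothelium 2 of 9 and Schwann cells 3 of 7. Those with a member included Insm1, Isl1, Krt8 and Sox2 for Merkel cells, Dct, Mitf and Pmel for melanocytes, Cd74, Itgam and Spi1 for immune cells, Col1a1 and Thy1 for fibroblasts, and Flt1 and Tek for endothelium. Those without one included Atoh1, Krt20, Tyr, Ptprc, Pdgfra and Pecam1. Pmel shares it with Rab5b and Cdk2. With the wider 50% of peaks 0% of immune and endothelial markers, 9.09% of Merkel and 10% of fibroblast markers had a member. The part that other cell types in the sorts have in these peaks was not tested.

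Promoters with a member were rich in CpG. The listed RefSeq start lay within 1 kb of the start of the gene span for 15752 of 17492 genes (90.1%), and these were used, with the 300 bases from 250 before to 50 after the start. The median ratio of observed to expected CpG was 0.790 at the 8649 with a member, 0.504 at the 809 with a region in 1 to 5 libraries, 0.194 at the 6294 with no region and 0.586 over all. A ratio of at least 0.6 stood at 77.9% of those with a member and 10.1% of those with no region. Sorted by this ratio into 4 equal bins, 7.40, 37.9, 82.5 and 91.9% of promoters had a member. GC content had medians of 61.7% with a member and 47.0% with no region.

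**Figure D2:**
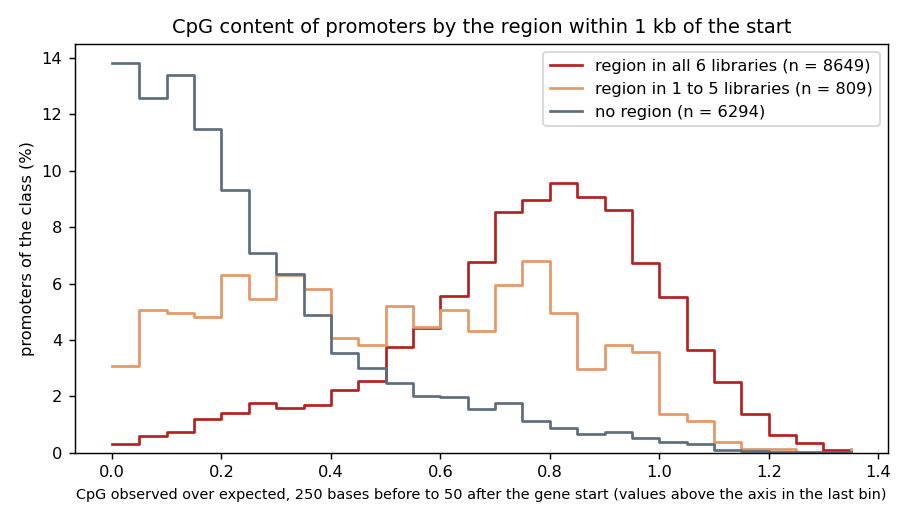
Distribution of the ratio of observed to expected CpG (horizontal axis) over promoters with a region in all 6 libraries, in 1 to 5, or with none, as percent of the promoters of each class (vertical axis). Promoters with a member have a median of 0.790, and those with no region, which pile up toward 0, a median of 0.194.

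Motif letters followed the same division. The ETS letters stood in 19.5% of promoters with a member, 12.05% of all promoters and 2.73% of those with no region. The GC box stood in 68.7%, 46.7% and 16.5%, NRF1 in 15.4%, 9.23% and 1.49%, CRE in 3.64%, 2.38% and 0.779%, and YY1 in 3.46%, 2.00% and 0.175%. The E-box was at 10.7%, 8.01% and 4.39%. The CCAAT box was level at 39.99%, 39.4% and 39.2%. AP-1 ran the other way with 4.56%, 6.996% and 10.1%, as did the TATA box with 6.72%, 13.7% and 23.3%. The 6 motifs with a higher share at members all contain CG in their letters, and base composition differed between the classes as given above; its part was not tested. A match gives letters in a window and no binding.

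Peak width, the bp under peaks in a region, was not itself a criterion for members. It is not independent of the rule, since a longer region reaches or holds a gene end more easily. Among regions with a peak in all 6 libraries, the median of the mean width was 1259 bp where an end was held. It was 1126 bp at 901 to 1000 bp from an end and 1031 bp at 1001 to 1100 bp. The part of this in the differences below was not tested. Members were wider than the other regions with a peak in all 6 libraries in each of the 6 libraries. Median widths in members were 1193 and 1284 bp for touch dome, 1278 and 1232 bp for IFE, and 1244 and 1205 bp for HF. In the 23115 regions away from gene ends they were 935 and 1086, 1045 and 999, and 1005 and 968 bp. The median at gene ends exceeded that away by 233 ± 19.5 bp (SD, n = 6 libraries, range 198 to 258; exact two-sided sign-flip permutation p = 0.03125, the smallest that 6 libraries allow). Members at starts alone exceeded those at 3′ ends alone by 231 ± 18.02 bp (SD, n = 6, range 206.5 to 258.5; exact sign-flip permutation p = 0.03125), and both p-values were the same after Benjamini-Hochberg adjustment over the 2 tests. Members at divergent pairs had medians of 1288 to 1371 bp, and those at 3′ ends alone 950 to 1090.5 bp.

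**Figure D3:**
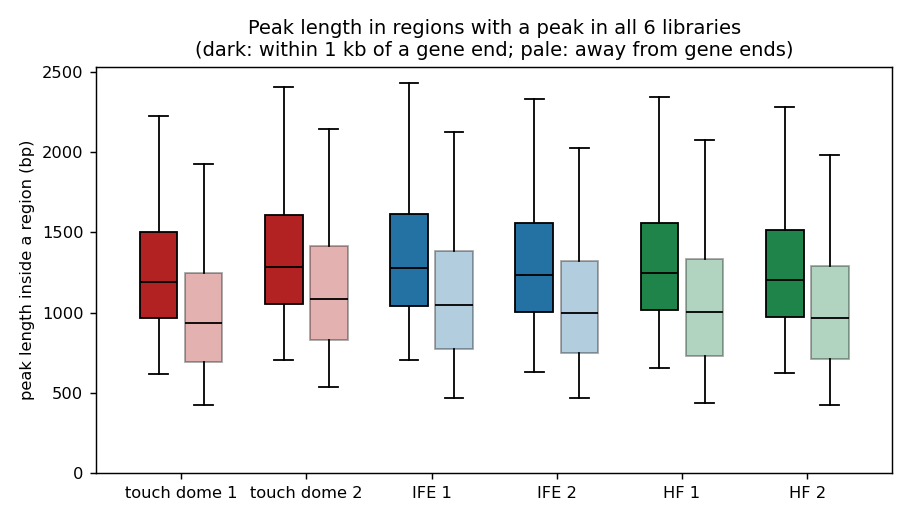
Peak width in bp (vertical axis) per library in members (dark) and in regions away from gene ends with a peak in all 6 libraries (pale); boxes show quartiles with the median line and whiskers the 5th and 95th percentiles. Every dark median lies above its pale neighbour.

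Between populations the median member did not differ beyond the spread of libraries. Group means of the median width were 1238.5 ± 64.3 bp for touch dome, 1255 ± 32.5 bp for IFE and 1224.5 ± 27.6 bp for HF (SD, n = 2 each). Touch dome minus IFE was -16.5 bp, touch dome minus HF 14 bp and IFE minus HF 30.5 bp, with exact two-sided permutation p = 1, 1 and 0.667 and all 3 adjusted to 1, where 2 against 2 libraries cannot go below 0.333. Both signs involving touch dome turned when 1 library was left out (29.0 bp without touch dome 1 and 6.50 bp without IFE 1, and -31.5 bp without touch dome 2 and -5.50 bp without HF 2).

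Around a gene start the peaks reached farther into the gene than upstream. This was measured at the 5922 members that held 1 start and had no other gene end within 1 kb. Medians over the libraries were 447 to 488 bp upstream and 703 to 753 bp downstream. In each library the peaks spanned the start at 96.5 to 98.1% of them, a share largely set by choosing members that hold the start. The widest members over all libraries lay at Cd9, Efna1, Myc, Mef2d, Junb, Tfap2b, Tgif1, Marcks, Map3k20 and Hcfc1r1. Myc and Junb, transcription factors of growth and immediate early response, measured 4349, 4616, 4836, 4319, 4266 and 4252 bp and 4190, 4868, 4222, 4385, 4284 and 4449 bp, each in the order touch dome 1 and 2, IFE 1 and 2, HF 1 and 2, which holds for all lists of 6 widths here. At Hcfc1r1 the 6 widths stayed within 4099 to 4141 bp, over a member that also nears Thoc6 and Tnfrsf12a. None of these 10 differed in width between populations in the test below. The narrowest were at Ikzf3, Gm8773, Sh3bp2, Tor4a and Eno2, at 303 to 458 bp in all libraries, and 3 of these 5 lay near a 3′ end.

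The ratio of the widest to the narrowest library had a median of 1.20 in members and 1.48 away from gene ends, and it was above 2 in 696 members (6.25%) and in 22.4% of the others. In the 4 bins of CpG it was above 2 in 18.8, 7.05, 3.71 and 2.82% of members, from the poorest to the richest. Inside members, peaks of 2 libraries shared a mean of 89.5% of their joint bp (Jaccard index) within a population, 89.1% between touch dome and IFE, 86.1% between touch dome and HF and 85.4% between IFE and HF. Within-population pairs exceeded the others by 0.0261 on the Jaccard scale (one-sided exact permutation p = 0.133 over 15 pairings), so at gene ends the labelled pairing was not the highest. The pairing that scored highest, 0.0286, put touch dome 1 with IFE 2, touch dome 2 with IFE 1, and the HF libraries together. Away from gene ends the excess was 0.0614 and the labelled pairing was the highest (exact permutation p = 0.0667, the smallest of 15). The excess away from gene ends was larger than at members by 0.0353 (one-sided exact permutation p = 0.0667). Touch dome was more like IFE than HF by 0.0295 at members, and the exact permutation gave p = 0.333 (two-sided), the smallest possible.

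Differences in width at single regions were tested with limma over all 34250 regions with a peak in all 6 libraries (log2 width, libraries centred, Benjamini-Hochberg adjusted p under 0.05). Median log2 differences over members were 0.0020 for touch dome minus IFE, -0.0059 for touch dome minus HF and -0.0068 for IFE minus HF, and over all regions -0.0044, -0.0076 and 0.00078. Few members differed between touch dome and IFE. Touch dome was wider at 16 members (0.144% of 11135, against 0.388% of all regions tested) and IFE at 3 (0.0269%, against 0.0526%). An unadjusted limma p under 0.05 stood at 452 of the 11135 members and at 2855 of all 34250 regions. The share of members is under the 0.05 that this threshold gives where no width differs. By limma both counts fell to 0 without touch dome 1 (722 members at an unadjusted p under 0.05). They were also 0 without HF 1 or HF 2 (396 and 400 unadjusted), which enter this comparison through the estimate of spread alone, so that the differences themselves stayed as they were. Without IFE 1 they were 8 and 0 (385 unadjusted), without IFE 2 8 and 1, and without touch dome 2 4 and 16. 

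Kirrel had the largest of these differences. Its member, over the start shown above, measured 1401 and 1577 bp in touch dome, 348 and 330 bp in IFE, and 1706 and 1631 bp in HF. Touch dome and HF were high and both IFE libraries low, with no overlap. The log2 difference of touch dome and IFE was 2.15 (SE 0.0888, limma adjusted p = 0.0104; 0.114 without touch dome 1) and of IFE and HF -2.34 (adjusted p = 0.00286). Tll1, a protease of the tolloid family, followed with 2400 and 2689, 656 and 733, and 2432 and 2558 bp (log2 1.89, SE 0.0942, limma adjusted p = 0.0155). The same order held at Ramp1, part of the receptor for the neuropeptide CGRP, with 2256, 3050, 1000, 858, 3193 and 2439 bp. Its call (limma adjusted p = 0.0319) was lost without centring (0.142), with the longest peak alone (0.701), with members alone in the fit (0.0695), with the replicate block (0.0554) and without any 1 library (0.0652 to 0.134). Lmtk2, a kinase gene, had 2827, 2809, 1301, 1265, 2907 and 2824 bp, and Tmtc1 and Pdzrn3 also had both IFE libraries lowest. All 8 members named as wider in touch dome (Kirrel, Tll1, Ramp1, Pdzrn3, Fam171b, Scrg1, Lmtk2 and Tmtc1) were wider in HF than in IFE too, and touch dome and HF did not differ by the test at any of them.
The 3 wider in IFE were Slc6a4, Nectin2 and Ddx3x. Slc6a4, the serotonin transporter, measured 1602 and 1764 bp in touch dome, 3117 and 3069 bp in IFE and 1835 and 1601 bp in HF (log2 touch dome minus IFE -0.86, limma adjusted p = 0.0273). Its call did not hold with the longest peak alone (limma adjusted p = 0.523), without centring, with the replicate block or without any 1 library. Nectin2, an adhesion receptor, had 1290, 1465, 2364, 2290, 1374 and 1355 bp. Ddx3x, an X-linked RNA helicase, differed 720 bp beyond its 3′ end, where touch dome was lowest with 845 and 885 bp, HF between with 1452 and 1454 bp and IFE highest with 2219 and 1919 bp.

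**Figure D4:**
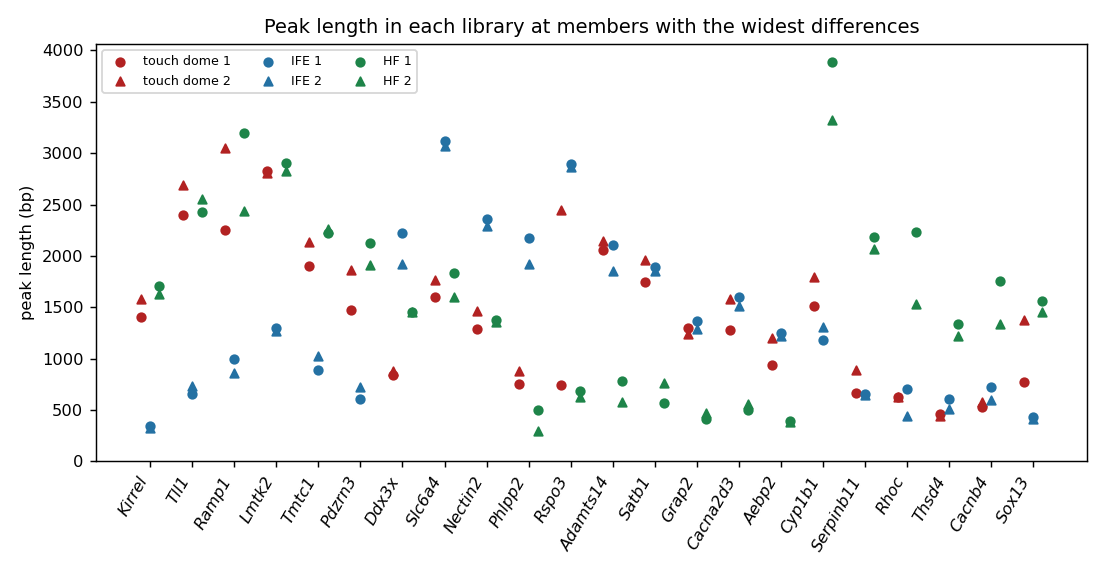
Peak width in bp (vertical axis) in each library at 22 members with wide differences (horizontal axis, nearest gene); colours give the population, circles library 1 and triangles library 2. From Kirrel to Pdzrn3 the IFE libraries lie lowest, from Ddx3x to Rspo3 highest, and from Adamts14 to Aebp2 the HF libraries lie lowest.

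Touch dome and HF differed at more members. Touch dome was wider at 119 (1.07%, against 3.26% of all regions tested) and HF at 82 (0.736%, against 1.12%). Leaving out touch dome 1 left 17 and 10 calls, HF 1 83 and 28, and HF 2 74 and 37. Leaving out IFE 1 or IFE 2, which changes the estimate of spread and no difference, left 47 and 31 or 47 and 28. Without touch dome 2 the order turned to 81 and 120. Adamts14 measured 2059 and 2148 bp in touch dome, 2104 and 1852 bp in IFE, and 787 and 576 bp in HF (log2 touch dome minus HF 1.62, SE 0.140, limma adjusted p = 0.00890). Satb1, a chromatin organizer known from keratinocyte differentiation, had 1742 and 1962, 1889 and 1849, and 572 and 760 bp. Aebp2, a cofactor of Polycomb complex PRC2, had 936, 1203, 1247, 1221, 393 and 388 bp, at a member 615 bp from its start. Cacna2d3, a calcium channel subunit gene, measured 1280, 1583, 1600, 1516, 504 and 557 bp. In these 4 both HF libraries were lowest. Touch dome and IFE overlapped in 3 of them, and at Aebp2 both IFE libraries lay above both touch dome libraries. Chil1 differed from them: inside the gene, 352 bp before its 3′ end, touch dome had 1291 and 1231 bp, IFE 623 and 621 bp and HF 402 and 503 bp, with no overlap among the 3, though touch dome minus IFE (log2 1.04, limma adjusted p = 0.110) missed the threshold.
Members wider in HF showed the reverse. Rhoc, a small GTPase gene, had 629 and 623 bp in touch dome, 708 and 438 bp in IFE, and 2237 and 1533 bp in HF (log2 touch dome minus HF -1.59, SE 0.261, limma adjusted p = 0.0344). Cyp1b1, a cytochrome P450, had 1516, 1792, 1183, 1308, 3883 and 3320 bp. Serpinb11, a protease inhibitor family gene, had 668, 888, 661, 644, 2182 and 2072 bp. Thsd4, whose product associates with fibrillin, measured 458, 445, 611, 511, 1341 and 1223 bp. Both HF libraries were highest at each of these. Rnf112, Cacnb4, Galm and Atox1 completed the 8 largest in this direction.

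IFE and HF differed at the most members. IFE was wider at 268 (2.41%, against 5.84% of all regions tested) and HF at 238 (2.14%, against 4.81%). Away from gene ends the shares were 7.49% and 6.09%; the difference between the 2 sets in these shares was not tested. IFE took 53.0% of the member calls, and 66.6% (241 and 121) without centring the libraries. Leaving out IFE 1 left 44 and 79 calls, IFE 2 76 and 85, HF 1 162 and 79 and HF 2 154 and 90.
Phlpp2, a phosphatase that acts on AKT, had the largest difference toward IFE, at its 3′ end: 757 and 884 bp in touch dome, 2174 and 1918 bp in IFE, and 502 and 297 bp in HF (log2 IFE minus HF 2.36, SE 0.233, limma adjusted p = 0.00618). Rspo3, an R-spondin that amplifies Wnt signals, had 748, 2442, 2895, 2863, 683 and 624 bp. There IFE was high and HF low, and the touch dome libraries fell on opposite sides (log2 IFE minus HF 2.10, SE 0.460, adjusted p = 0.0438). Arhgdib, shown above for its CpG-poor promoter, had 1480, 2209, 2592, 1724, 661 and 646 bp. Nbl1, a secreted BMP antagonist, had 1086, 1906, 2435, 1962, 605 and 866 bp. Tdgf1, a co-receptor of Nodal signals, had 1274, 1655, 2047, 925, 377 and 490 bp, with the IFE libraries on either side of touch dome. Toward HF, after Kirrel, came Cavin2, Rnf112, Sox13, Tll1, Pdlim3, Tspan33 and Atoh8. Sox13, a SOX family factor, had 777 and 1375 bp in touch dome, 430 and 409 bp in IFE, and 1566 and 1456 bp in HF. Atoh8, a bHLH factor, had 575 and 875, 296 and 404, and 1201 and 1154 bp, so touch dome lay between without overlap at Atoh8 and Sox13 alike.

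**Figure D5:**
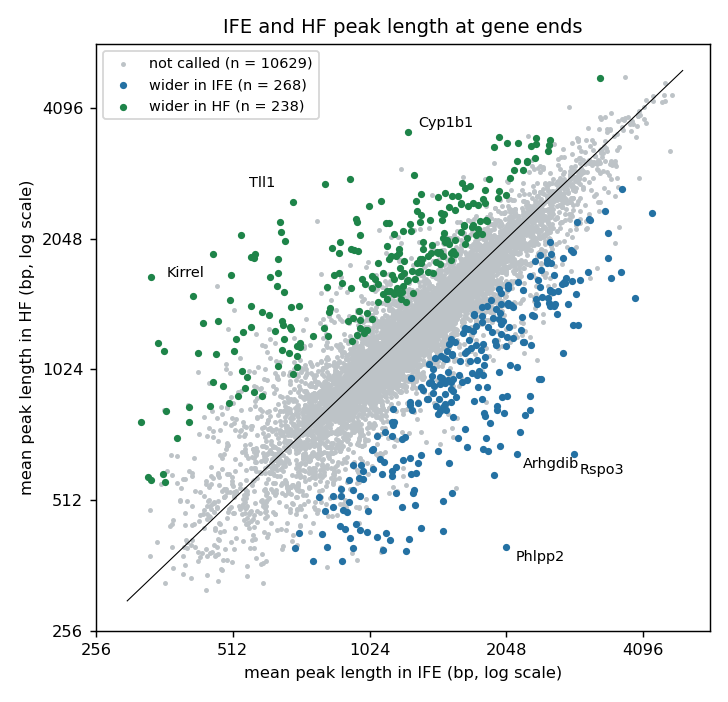
Mean peak width in IFE (horizontal axis) against HF (vertical axis), in bp on log scales, for the 11135 members; the line marks equal widths. The 268 members called wider in IFE lie below the line, the 238 wider in HF above, and 10629 were not called.

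The touch dome libraries were not used to call IFE against HF, except in the estimate of spread. At the 268 members wider in IFE, median widths were 1391 and 1572.5 bp in touch dome, 1726.5 and 1661.5 bp in IFE and 1002.5 and 966 bp in HF, and the touch dome mean was nearer IFE in 214 (79.9%). At the 238 wider in HF they were 1290 and 1439.5 bp in touch dome, 1154 and 1126.5 bp in IFE and 1825.5 and 1803 bp in HF, and touch dome was nearer IFE in 156 (65.5%). Touch dome lay between the other 2 in 230 and 190 members. These members were chosen for a large difference between IFE and HF, so a population left out of that choice would often lie between. The same shares over all members were not computed. The counts are over members of the same libraries and were not tested, so they describe the called members alone.

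By role, the machinery lists had 548 members. Of these, 0 differed between touch dome and IFE by limma (4 at an unadjusted p under 0.05), 4 differed between touch dome and HF (0.730%, against 1.81% of all members) and 7 between IFE and HF (1.28%, against 4.54%), with a median log2 difference of 0.01 (IFE minus HF). The 7 became 0 without IFE 1, and 2 without IFE 2, HF 1 or HF 2; the 4 became 0 without IFE 1, IFE 2 or HF 2, and 1 without touch dome 1, touch dome 2 or HF 1. The 6 wider in IFE than in HF were labelled by their nearest genes Rpl11, Rplp0, Psmd8, Taf8, H4c14 and Shmt2, and Prpf18 was wider in HF. Rpl11 differed at a member 58 bp past its 3′ end, with 1042, 1262, 1256, 1034, 685 and 507 bp, and Shmt2, which neighbours the list gene Ndufa4l2, also at a 3′ end. In contrast, Rpl41 had 3129, 3275, 3275, 3078, 3300 and 3254 bp, and Cct7 1598, 1596, 1582, 1602, 1605 and 1611 bp.
In the 4 keratinocyte and follicle lists, compared between IFE and HF, of 65 members 6 were wider in IFE and 8 in HF, 21.5% together against 4.54% of all members, with a median log2 difference of -0.04. These counts became 0 and 2 without IFE 1, 4 and 2 without IFE 2, 3 and 1 without HF 1, 1 and 6 without HF 2, and 2 and 4 without centring. Of the integrin genes of the basal list, Itga6 and Itga3 were wider in IFE, while Itgb1 and Itgb4 did not pass the test between IFE and HF. Itga6, which encodes the α6-integrin of the sort, measured 3387 and 4597 bp in touch dome, 4593 and 3952 bp in IFE, and 2587 and 2097 bp in HF (log2 IFE minus HF 0.83, limma adjusted p = 0.0236), and Itga3 1277, 1389, 1865, 1547, 1081 and 1061 bp. Tfap2a, an epidermal transcription factor, and the desmosomal genes Cdsn and Dsg1a were also wider in IFE.
Krt14 changed in opposite directions at its ends. The member over its start had 1946 and 2068 bp in touch dome, 2436 and 2105 bp in IFE, and 3096 and 3059 bp in HF (log2 IFE minus HF -0.48, limma adjusted p = 0.0214). The member 50 bp past its 3′ end had 1987 and 2148, 2948 and 2351, and 1555 and 1190 bp (log2 0.91, adjusted p = 0.0172). Krt15, a keratin of basal and bulge cells, was wider in HF at one of its members with 1760, 1959, 1844, 1826, 2644 and 2652 bp. Its widest member, 413 bp off the gene, had 2760, 2112, 3310, 2635, 2377 and 2166 bp and did not pass the test.
Of the 22 members of the hair follicle list, Lhx2, Bnc2 and Tcf7l1 were wider in HF than in IFE (13.6%, against 2.14% of all members) and 0 in IFE by limma (7 differed in either direction at an unadjusted p under 0.05), with a list median of -0.19 on the log2 scale. The 3 became 2 without IFE 1, 1 without IFE 2 or HF 2 and 0 without HF 1. Lhx2, a LIM homeobox factor of follicle stem cells, had 924 and 1179 bp in touch dome, 552 and 329 bp in IFE, and 1466 and 1153 bp in HF. Tcf7l1, a Wnt effector of the bulge, had 1140, 1145, 1070, 1125, 1490 and 1560 bp. Of the 14 of the touch dome list, Gli2, Boc and Tnc were wider in HF than in IFE (21.4%, against 2.14% of all members), and 0 differed between touch dome and IFE by limma (2 at an unadjusted p under 0.05). The 3 became 0 without IFE 1, IFE 2 or HF 1, and 0 without centring. Gli2, a Hedgehog effector, had 1964 and 1639, 1300 and 1359, and 2662 and 1975 bp. Tnc had 1088 and 1375 bp in touch dome, 907 and 770 bp in IFE, and 1535 and 1302 bp in HF, so the gene that drives the reporter was widest in HF, with touch dome overlapping it, although HF was sorted as tdTomato negative. Ly6a had 1059 and 1294, 968 and 967, and 756 and 434 bp, lowest in both libraries of the SCA1-negative HF, without passing the test (log2 IFE minus HF 0.71, limma adjusted p = 0.132). Epcam, which every gate required, stayed within 1684 to 1786 bp.
Among 219 members at solute carriers 11 were wider in IFE and 2 in HF, 5.94% together and near the 4.54% of all members, and their median log2 difference was -0.02. The 11 became 2 without IFE 1, IFE 2 or HF 1 and 5 without HF 2, and the 2 became 3, 0, 3 and 0 in the same order. Slc2a12, a glucose transporter gene, had 1536, 1202, 1862, 1763, 903 and 845 bp, and Slc7a2, a cationic amino acid transporter gene, 1154, 1277, 1023, 1082, 1470 and 1843 bp. In the first both IFE libraries were highest, and in the second both HF libraries. The markers of other cell types had 5 members for Merkel cells, 3 for melanocytes, 3 for immune cells, 2 for fibroblasts, 2 for endothelium and 4 for Schwann cells. Of these, Thy1, Isl1 and Tek differed between IFE and HF, as did 4.54% of all members. With so few members the share says little, and these calls were not followed with libraries left out. Thy1, a surface glycoprotein of fibroblasts and T cells, had 1748 and 2169 bp in touch dome, 2583 and 2290 bp in IFE, and 1103 and 844 bp in HF (log2 IFE minus HF 1.29, limma adjusted p = 0.00618). Isl1, a LIM homeobox factor of Merkel cells, had 891, 997, 831, 757, 496 and 546 bp, with HF lowest. Tek, an endothelial receptor, had 961, 1307, 669, 694, 1029 and 1204 bp, with IFE lowest. Sox2, a factor of Merkel and dermal papilla cells, had 545, 677, 842, 764, 691 and 392 bp and did not pass the test in any comparison.

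Between IFE and HF, 58 of 628 members at 3′ ends alone were called (9.24%), 318 of 7426 at starts alone (4.28%) and 7 of 566 at divergent pairs (1.24%), against 4.54% of all members. Median absolute log2 differences were 0.21, 0.08 and 0.05 in the same order. Without IFE 1 the shares were 2.23%, 1.12% and 0% by limma, without IFE 2 3.66%, 1.347% and 0%, without HF 1 5.73%, 1.91% and 0.707%, and without HF 2 5.89%, 1.82% and 0.177%, so the order stayed. Of the 566 at divergent pairs 35 had an unadjusted p under 0.05 with all libraries. Between touch dome and HF the shares were 3.66%, 1.62% and 0.883%. Some called members held 1 start and had no other gene end within 1 kb. Among these, the extra length of the wider population lay more downstream than upstream in 83 of 128 wider in IFE (64.8%). The same held in 81 of 133 wider in HF (60.9%). Peaks at all 5922 members of this kind also reached farther downstream (medians 703 to 753 bp) than upstream (447 to 488 bp). The share for members not called was not computed, so nothing particular to the called ones is shown. Promoters of the members called between IFE and HF held the ETS letters in 12.5% of those wider in IFE and 5.52% of those wider in HF, against 18.6% of all members with a promoter, with medians of the CpG ratio of 0.701, 0.723 and 0.784. These are descriptions, and the difference was not tested.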

How the data were processed

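ATAC-seq of 6 libraries, 2 per population, was analysed from the peak lists the authors deposited, 1 per library. The values used are the start and end of each peak in bp, in other words positions, and the deposited files hold no score or count. The submitters' processing notes name MACS2 2.2.7.1 as well as Bowtie2 2.4.5, Trim Galore 0.6.7 and SAMtools 1.9, and build mm10; for their settings and any shift for the transposase the sources used here say nothing. Peaks called per library depend on its depth, which is unknown, and so do their widths.

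Gene spans came from RefSeq (GRCm38.p6), strand and sequence from its promoter table; genes of the mitochondrion were left out. A gene start is the outer end of the span, so other starts inside a gene count as away. Intervals on shares of genes are exact binomial at 95% (scipy 1.17.1). Width was the summed length of a library's peaks in a region. limma 3.58.1 (R 4.3.3, eBayes with trend, 6 libraries in 1 fit with 3 residual degrees of freedom) tested log2 width after centring each library on its median; SE is the moderated standard error. Region building and the fit were tested on simulated data. Other tests were exact permutations (numpy 2.4.6). Named members were the 8 largest called differences per direction whose groups did not overlap, the 10 widest and 5 narrowest, the widest and narrowest of each list and the sort markers. Members called in list comparisons, and the promoters of Kirrel, Adamts14 and Arhgdib, were chosen after their values were seen. The members, lists and tests were chosen with earlier results of these data known. Alternatives covered peak cover, merging, distance, wider peaks, scaling, peak length and each library left out. The use of genes whose listed start matched the span was decided after seeing the data.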

Additional observations from a re-analysis of the deposited data

How the results depend on the processing

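The share of genes with a member, 54.6%, was 51.5% when peaks had to cover 50% of the region, 52.6% within 500 bp, 57.3% within 2 kb and 43.0% with the wider 50% of peaks. The number of members ran from 8256 to 12105 over these settings. Group differences in median width turned sign without touch dome 1 (29.0 bp) or IFE 1 (6.50 bp) for touch dome minus IFE (range -62.0 to 29.0), and without touch dome 2 (-31.5 bp) or HF 2 (-5.50 bp) for touch dome minus HF (range -31.5 to 59.5).

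Counts of members wider in one population moved most. Without centring, 4 were wider in touch dome and 1 in IFE, 50 in HF than touch dome, and 121 in HF than IFE. With the longest peak alone the first pair was 10 and 9. With members alone in the fit, 9 were wider in touch dome than IFE, 52 in HF than touch dome and 151 in HF than IFE. Leaving out each library gave 0 to 8 wider in touch dome and 0 to 16 in IFE, 17 to 83 in touch dome and 10 to 120 in HF, and 44 to 295 in IFE and 79 to 259 in HF. The causes were not tested. Gene ends exceeded regions away by 228 to 240 bp, and starts 3′ ends by 225.8 to 236.2 bp, with 1 library left out, where the exact permutation p cannot go below 0.0625. Named differences were chosen among large ones whose groups did not overlap. Their sign could therefore hardly change, and its stability is no evidence for them. Of 43 named differences 0 changed sign in any setting run; 24 lost their call without touch dome 1, 12 without touch dome 2, 17 and 14 without IFE 1 and 2, and 19 and 20 without HF 1 and 2.

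Whether libraries of the same number in different populations came from the same mice or sort is not said in the labels. Their deviations correlated by 0.0538 (touch dome and IFE), 0.0516 (touch dome and HF) and 0.127 (IFE and HF). These values cannot tell whether the libraries were paired, and the main fit treated them as unpaired. A fit with the replicate number as a block gave 5 and 2, 102 and 61, and 242 and 206 calls in the same order. Depth is unknown, so a narrower or missing peak in a shallower library cannot be told apart from less accessible chromatin.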
